A study of Mus musculus with 6 samples.

Results

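Mir210 is the mouse gene of miR-210, the miRNA best known for its induction when oxygen is low. It was taken as the single row with that gene name, 1 of 1155 miRNA rows counted, and it is followed here through 6 small RNA libraries of mouse embryonic fibroblasts, which are connective tissue cells grown from embryos. Wild-type (WT) fibroblasts gave 3 libraries, and fibroblasts with a knockout of Fbxw7 (Fbxw7 KO) gave the other 3. All were cultured in DMEM with serum and non-essential amino acids, and the labels name no low-oxygen treatment, no oxygen level, no age or strain and no method of knockout. The row was selected on its measured Fbxw7 KO and WT counts, whose difference was already known, so its levels are a description and carry no p-value. The labels number the libraries of each genotype 1 to 3 without tying them to embryos or cultures, and p-values below measure only the spread between these libraries, which may be technical. The Fbxw7 transcript was not analysed here.

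FBXW7 is the substrate-recognition part of an SCF ubiquitin ligase, which marks proteins such as Myc, Notch, cyclin E and Jun for destruction. The hypoxia-inducible factors (HIF) are transcription factors whose alpha subunits are destroyed through the VHL ligase while oxygen is plentiful. When oxygen falls they accumulate, and MIR210 is one of the genes they activate most reliably across cell types. The mature miR-210 is known to lower transcripts of mitochondrial metabolism, such as the iron-sulfur cluster scaffold Iscu, and of the ephrin ligand Efna3.

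In mm10 the Mir210 hairpin occupies chr7:141221384-141221493 on the minus strand and is 110 bases long. The RefSeq table (GRCm38.p6) gives the same coordinates. In GENCODE M21, 0 other annotated genes overlap it. It lies between Rassf7, which ends 2726 bases to the left, and Phrf1, which starts 7291 bases to the right, both on the plus strand. The hairpin is shown first because all counts below are reads assigned to this interval, with the mature arms in capitals, and the arms follow with the seed (bases 2 to 8, the part that pairs with targets) in capitals.
hairpin: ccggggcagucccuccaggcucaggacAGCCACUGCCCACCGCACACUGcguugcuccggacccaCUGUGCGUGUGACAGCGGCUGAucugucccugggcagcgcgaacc
miR-210-3p: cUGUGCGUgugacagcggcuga
miR-210-5p: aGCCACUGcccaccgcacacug

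The 3p arm, chr7:141221407-141221428, is the arm usually meant by the name miR-210, and the 5p arm lies at chr7:141221445-141221466. Both fall into 1 count, so the data do not say which arm was read. Neither seed was shared with another gene: of 1738 mature mouse miRNAs in the RefSeq table, 0 from other genes had the 3p seed and 0 the 5p seed, even over bases 2 to 7 alone. The longest run of letters shared with any other of the 1005 hairpins was 10 bases. Neither mature arm occurred, on either strand, in any other GENCODE M21 transcript. Of the rows listed, none overlaps Mir210, the nearest on the chromosome being Mir7063, whose start is 399317 bases away. Mir210 counts are therefore not exposed to copies among the sequences searched, unlike those of several miRNAs described below. The hairpins did not cover every counted row, Mir320 and Mir30f being examples without one.

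The sites that such a seed would meet are short. The 7 letters complementary to the 3p seed, ACGCACA, were searched on the transcript strand in the longest GENCODE M21 3′ UTR of each protein-coding gene. They occurred in 646 of 21020 genes (3.07%). Of 15 genes often named as miR-210 targets, 4 held them (Gpd1l, Efna3, Fgfrl1 and Acvr1b), while 11, Iscu among them, had no such 7-letter match in this UTR. Efna3 and Gpd1l are shown because Efna3 is the classic target and Gpd1l, a glycerol phosphate dehydrogenase-like protein linked to HIF turnover, held 3 matches. Capitals mark the 7 letters.
Efna3, chr3:89314665-89314687, minus strand: gacaggacctatgcaACGCACAg
Gpd1l, chr9:114902218-114902240, minus strand: caactacagacacacACGCACAt
Gpd1l, chr9:114900799-114900821, minus strand: gtcgacctcagtgaaACGCACAc
Gpd1l, chr9:114900507-114900529, minus strand: agtcccacacctaaaACGCACAg
A match is only a description of the letters, and the transcripts of these genes were not measured in these libraries.

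The 6 libraries held 2932439 to 5019700 counts, and 484 to 532 rows had counts in a library. Of the 1155 rows, 283 passed the filter on low counts, Mir210 among them. Fibroblast and mesenchymal miRNAs, with 5 of 7 listed members having a row, held 46.2% to 46.9% of counts in WT and 48.9% to 52.3% in Fbxw7 KO. Blood cell (5 of 5 rows), epithelial (7 of 7), neuronal (6 of 6), liver (1 of 1) and pluripotent (5 of 6) markers each held at most 0.00618% in a library. Both endothelial rows, 5 of 7 muscle rows, 3 neuronal rows, 1 blood cell row and 1 pluripotent row stood at 0. Such a 0 may reflect the counting and does not show absence. Reads with several alignments or over 2 rows were left out by the program's default. Both endothelial rows, for example, overlap each other on chromosome 2. Fbxw7 KO replicate 3 stood apart from the other KO libraries over all tested rows: the chi-square per degree of freedom between 2 libraries' counts was 425 and 694 against KO replicates 1 and 2 and 803 to 1208 against the WT libraries. It was 112 between KO replicates 1 and 2 and 124 to 393 among the WT libraries. Being taken on raw counts, this measure gives most weight to the most abundant rows. Mir127, for example, had 60841, 126038 and 8126 counts in Fbxw7 KO replicates 1 to 3.

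Mir210 was low in WT and several times higher in Fbxw7 KO. Mir210 counts were 329, 260 and 147 in WT replicates 1 to 3 and 1101, 941 and 2353 in the 3 Fbxw7 KO replicates. In CPM, which are counts scaled to a common library size with edgeR's TMM factors, the WT libraries stood at 66.0, 61.8 and 38.2. The Fbxw7 KO libraries stood at 347, 320 and 603 CPM. The groups did not overlap: the lowest Fbxw7 KO library, replicate 2, was 4.84 times the highest WT library, replicate 1. Such separation of 3 from 3 libraries was found for 124 of the 283 tested rows (43.8%), so it is not by itself unusual in this series. In cultures measured as a whole, more Mir210 per cell and more cells that make it cannot be told apart.

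**Figure D1:**
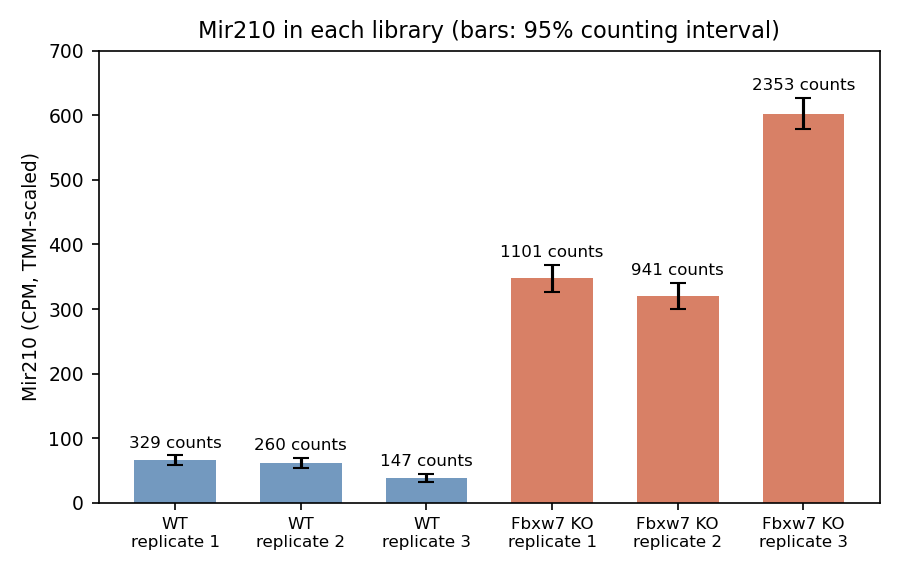
Mir210 in CPM (TMM-scaled) in each of the 6 libraries, WT in blue and Fbxw7 KO in orange, with the exact 95% Poisson interval of the count as an error bar and the raw count above it. The 3 WT libraries lie between 38.2 and 66.0 CPM and the 3 Fbxw7 KO libraries between 320 and 603 CPM, with Fbxw7 KO replicate 3 the highest.

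Mean Mir210 was 55.3 ± 15.0 CPM for the WT libraries and 423 ± 156 CPM for the KO libraries (SD, n = 3 each), a ratio of 7.65. On the log2 scale the edgeR model put the difference at 2.93 (SE 0.304). Over the 9 pairs of 1 Fbxw7 KO and 1 WT library the ratio ranged from 4.84 to 15.8. The WT libraries together held 736 Mir210 counts and the Fbxw7 KO libraries 4395, a ratio of shares of 8.08 (exact 95% binomial interval 7.47 to 8.75, counting error only). The ratio of mean deposited FPKM values was 7.79, and with plain library totals in place of TMM factors the ratio was 8.01. These scales differ by far less than the libraries do. Mir210 made up 0.00540% ± 0.00132 of all counts in WT and 0.0433% ± 0.0169 in Fbxw7 KO.

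The difference was present with and without any 1 library. Its smallest value, a log2 fold change of 2.60, was found without Fbxw7 KO replicate 3, the library with the most Mir210. Its largest, 3.08, was found without WT replicate 1. The mean of Fbxw7 KO replicates 1 and 2 alone was 6.03 times the WT mean.

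Libraries of a genotype differed in Mir210 by more than counting error. Exact 95% Poisson intervals ran from 54.5 to 69.8 CPM in WT replicate 2 and from 32.3 to 44.9 CPM in WT replicate 3, which do not meet. In Fbxw7 KO replicate 3 the interval was 579 to 628 CPM, against 327 to 368 in replicate 1 and 300 to 341 in replicate 2. Fbxw7 KO replicate 3 thus held 1.81 times the mean of the other KO libraries, and WT replicate 3 held 0.598 times the mean of the other WT libraries. The coefficient of variation was 27.1% in WT and 36.9% in Fbxw7 KO, while counting alone would give 6.42% and 2.63%.

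Mir210 was also more variable than most rows of like abundance. Among the 50 tested rows closest to it in mean CPM, the median coefficient of variation was 15.0% in WT and 12.1% in Fbxw7 KO, and 7 and 3 of the 50 exceeded Mir210. Its biological coefficient of variation in the edgeR model was 25.6%, and the median over all tested rows was 17.8%. Other rows were also high in Fbxw7 KO replicate 3, the library that stood apart by the chi-square given above. Mir206, a skeletal muscle miRNA, had 221, 212 and 390 CPM in Fbxw7 KO replicates 1 to 3 and 137, 165 and 218 CPM in WT replicates 1 to 3. The summed muscle list held 0.0409% of counts in Fbxw7 KO replicate 3, 0.0218% and 0.0229% in the other KO libraries and 0.0141% to 0.0230% in WT. Nearly all of this sum was Mir206, with 1521 counts in Fbxw7 KO replicate 3. Mir499, the other muscle row with counts, had 14 there. It went the other way, at 5.99, 5.43 and 3.59 CPM in Fbxw7 KO replicates 1 to 3. Without Fbxw7 KO replicate 3 the log2 fold change of Mir210 was 2.60, as given above.

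Per length, Mir210 moved from the lower part of the tested miRNAs to the upper. Ranked by mean deposited FPKM (counts per length and library size), it was number 169 of 283 in WT, at 499 ± 138 FPKM, and number 96 in Fbxw7 KO, at 3887 ± 1465 FPKM (SD, n = 3). By library its rank was 162, 166 and 175 in WT replicates 1 to 3 and 102, 107 and 84 in Fbxw7 KO replicates 1 to 3. The gain of 73 places was exceeded by 2 rows. In WT its neighbours were Mir339 above (502 ± 78.8 FPKM) and Mir335 below (465 ± 238 FPKM), and both differed from it by less than the spread. In Fbxw7 KO they were Mir192 above (4065 ± 97.9 FPKM) and Mir328 below (3854 ± 289 FPKM), again within the spread of Mir210, whose libraries ran from 2877 to 5567 FPKM.

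Of the 283 tested rows, 72 (25.4%) passed the test between genotypes, of which 43 (15.2% of those tested) had more counts in Fbxw7 KO and 29 (10.2%) had fewer (Benjamini-Hochberg adjusted p under 0.05 in edgeR's quasi-likelihood test). This count fell to 34 on leaving out Fbxw7 KO replicate 2, to 35 on leaving out WT replicate 2 and to 42 on leaving out WT replicate 1. With TMM factors taken from rows outside the Dlk1-Dio3 miRNA cluster, the split was 30 against 34, and the centre of the log2 fold changes of all tested rows, their median, shifted from 0.050 to −0.074. Mir210 stood at 2.80 in that setting. In the main fit its log2 fold change was the fifth from the top. Of the 4 rows above it, Mir217, Mir216a and Mir694 had mean WT levels under 1 CPM, and Mir672 had 24.5 ± 10.2 CPM. Mir210 was thus the most abundant in WT among the 5 rows with the largest positive values.

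**Figure D2:**
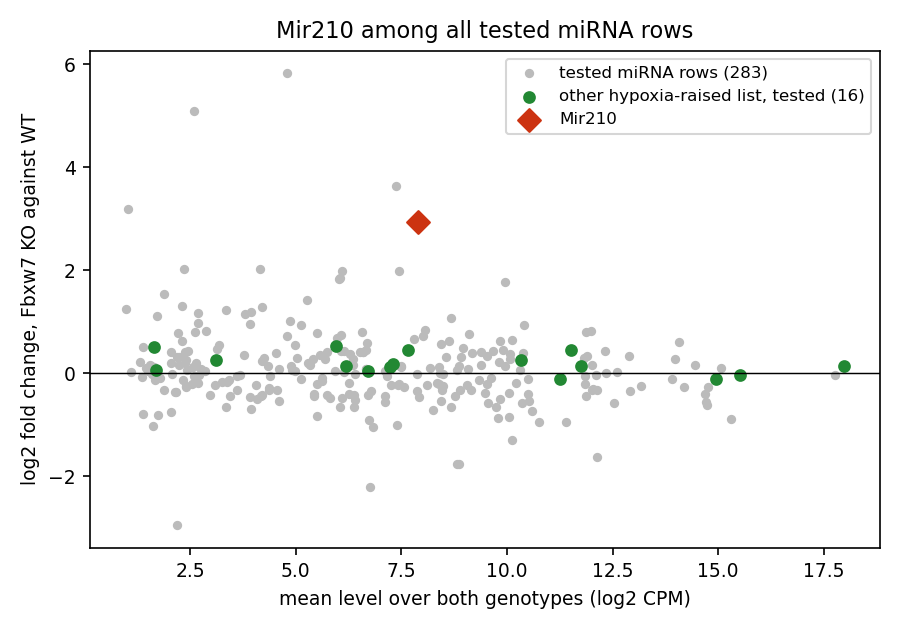
Log2 fold change (Fbxw7 KO against WT, edgeR) against mean level over both genotypes (log2 CPM) for the 283 tested rows in grey, with the 16 tested members of the list of other hypoxia-raised miRNAs in green and Mir210 as a red diamond. Mir210 lies at 2.93, while the green points lie between −0.11 and 0.53.

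Other miRNAs reported to increase in cultured cells at low oxygen did not show changes of that size. Few tested rows did: 5 of the 283 had a larger absolute log2 fold change than Mir210, which was selected for its difference. The list holds 20 members besides Mir210, 19 of which had a row: the miR-23, miR-24 and miR-27 families, miR-26, miR-103 and miR-107, miR-181, Mir21a, Mir155 and Mir322, the mouse counterpart of human miR-424. Of these, 16 could be tested, and Mir24-1, Mir24-2 and Mir155 stood at 0 counts in every library. Mir24-1 and Mir24-2 share 28 bases, and reads with several alignments were left out, so their 0 may reflect the counting. Among the 16, 1 was higher, 0 were lower and 15 did not pass, against 25.4% called among all tested rows. At an unadjusted p under 0.05 the count was 2. Of the 16, 13 had a positive log2 fold change. The median of the 16 was 0.14, where the median of all tested rows was 0.050, and the values ran from −0.11 to 0.53. For 3 of the 16 the genotypes did not overlap, while this held for 43.8% of all tested rows. Many of the 16 share long runs with a relative, from 20 bases (Mir23a with Mir23b) to 28 (Mir181a-1 with Mir181a-2). Their counts are uncertain for that reason, so the list is a limited reading of these miRNAs.

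Mir23a, from the cluster it forms with Mir27a and Mir24-2, was the member that passed the test, though Mir26a-2 had a larger log2 fold change (0.53). Mir23a had 2564, 2409 and 2454 CPM in WT replicates 1 to 3 and 3098, 3501 and 3612 CPM in Fbxw7 KO replicates 1 to 3. All KO libraries lay above all WT libraries. Its rise was 0.46 on the log2 scale (SE 0.122, adjusted p = 0.0251 by edgeR). It shares a run of 20 bases with Mir23b, so its count is uncertain. The call ended without WT replicate 1 (adjusted p = 0.0577), WT replicate 2 (0.102) or Fbxw7 KO replicate 2 (0.115), and with TMM factors from outside the Dlk1-Dio3 cluster (0.0691), within a range of 0.0175 to 0.115 over all alternatives.

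The most abundant members did not pass the test. Mir21a, the member with the highest mean CPM and a repressor of Pdcd4, had 253474, 263824 and 217422 CPM in WT replicates 1 to 3 and 276440, 265864 and 271030 CPM in Fbxw7 KO replicates 1 to 3. The WT libraries lay below the KO libraries, though by little (0.15 on the log2 scale, SE 0.107, adjusted p = 0.338 by edgeR). Mir27b, which shares 20 bases with Mir27a, had 47099, 46658 and 50168 CPM in WT replicates 1 to 3 and 38445, 40095 and 61276 CPM in Fbxw7 KO replicates 1 to 3. Its genotypes overlapped (−0.042, SE 0.18, adjusted p = 0.895 by edgeR), and its sign changed with plain library totals. Both are far more abundant than Mir210.

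**Figure D3:**
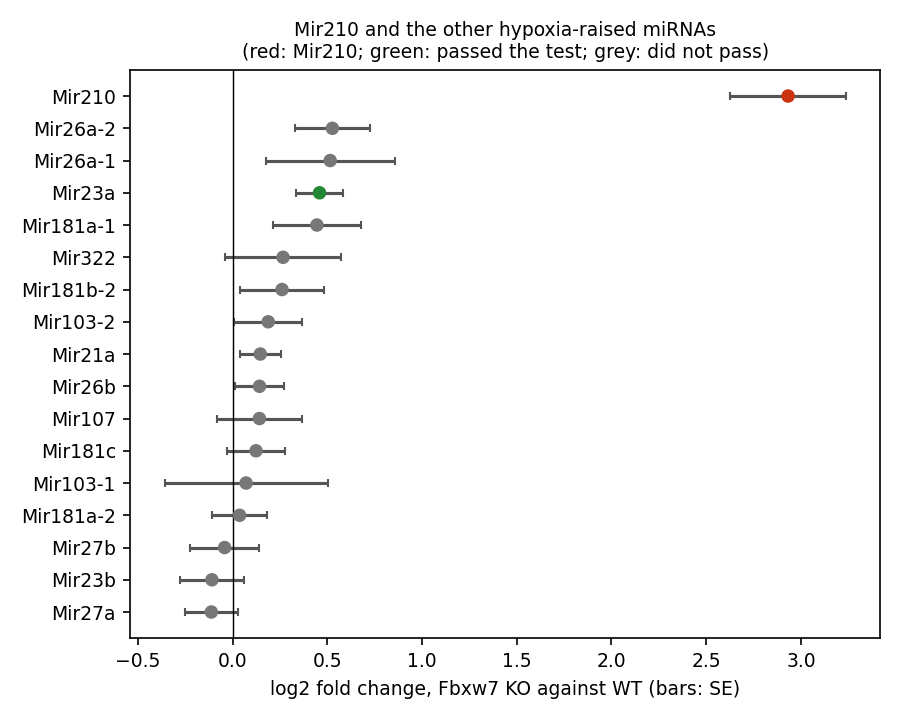
Log2 fold change (Fbxw7 KO against WT, edgeR) with its SE for Mir210 (red, a description) and the 16 tested members of the list of other hypoxia-raised miRNAs, in order of value. Mir23a, in green, passed the test at 0.46, and the 15 members in grey did not.

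The miRNAs reported to repress HIF subunits could hardly be judged. Of 12 members 9 had a row and 2 could be tested, and 0 of these passed the edgeR test, 0 at an unadjusted p under 0.05 and 0 with DESeq2. The miR-17 cluster members Mir17 and Mir20a, both repressors of Hif1a, stood at 0 counts, as did Mir22 and Mir155. Mir107, reported to repress Arnt, the partner of the HIF alpha subunits, had 83.1, 70.8 and 55.1 CPM in WT replicates 1 to 3 and 61.8, 72.7 and 96.1 CPM in Fbxw7 KO replicates 1 to 3. Its genotypes overlapped (0.14 on the log2 scale, SE 0.222, adjusted p = 0.687 by edgeR), and it shares 24 bases with Mir103-2. Mir138-1, at 1.30 to 4.52 CPM, differed by 0.036 on the log2 scale (SE 0.494, adjusted p = 0.97 by edgeR), and with 5 to 19 counts in a library it is measured too coarsely to show a small difference. A row at 0 here may reflect the counting, since reads with several alignments or over 2 rows were left out by the program's default.

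The miRNA rows nearest to Mir210 on its chromosome held few counts, and the protein-coding genes beside it were not measured. None of the 10 miRNA rows nearest to it on chromosome 7 passed the filter on low counts. Mir7063 held 29 counts over the 6 libraries, with 3 to 7 in each. Mir483, in Igf2, and Mir202, a gonadal miRNA, held 7 and 6 counts in all. Mir675, processed from H19, and Mir7064 held 3 counts each, and Mir7062 held 1. Mir3104, Mir7686, Mir6401 and Mir6404 held 0. These counts are too low for a comparison between genotypes.

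The rows whose pattern over the 6 libraries was most like that of Mir210 were Mir320, Mir378c, Mir672, Mir30f and Mir148b. Pearson's r of log2 CPM with Mir210 was 0.992 for Mir320, 0.990 for Mir378c, 0.987 for Mir672, 0.984 for Mir30f and 0.977 for Mir148b. These are descriptions over 6 libraries that share their scaling and fall into 2 genotypes. The correlation does not depend on the size of the change, which differed widely among these rows. Mir320 had 302, 281 and 249 CPM in WT replicates 1 to 3 and 390, 393 and 457 CPM in Fbxw7 KO replicates 1 to 3, a log2 fold change of 0.58. Mir378c, at 6.08 ± 0.641 CPM for WT and 14.3 ± 2.48 CPM for the KO (SD, n = 3), had 1.23, and Mir672, with 307 ± 40.4 CPM in Fbxw7 KO, had 3.64. Mir30f (0.28) and Mir148b (0.40) differed less. In each of the 5 rows, as in Mir210, Fbxw7 KO replicate 3 was the highest library. Without Fbxw7 KO replicate 3, or without WT replicate 3, 1 of these 5 rows was still among the 5 most alike.

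With the genotype means removed, the rows whose deviations followed those of Mir210 most closely were Mir26b (r = 0.979), Mir26a-2 (0.977), Mirlet7g (0.975), Mir873b (0.973) and Mir320 (0.970). Mir26b and Mir26a-2 belong to the hypoxia-raised list. Mir26a-2 had 53.6, 54.7 and 43.7 CPM in WT replicates 1 to 3 and 64.0, 64.5 and 90.2 CPM in Fbxw7 KO replicates 1 to 3. Like Mir210, it was lowest in WT replicate 3 and highest in Fbxw7 KO replicate 3, and its genotypes did not overlap, but it did not pass the test (0.53 on the log2 scale, SE 0.197, adjusted p = 0.085 by edgeR). It shares 25 bases with Mir26a-1. Mir873b followed the same deviations around a lower KO mean, with 165 ± 38.9 CPM for WT and 112 ± 49.0 CPM for the KO (log2 fold change −0.55). Leaving out 1 library kept 1 to 4 of these 5 rows among the 5 most alike.

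**Figure D4:**
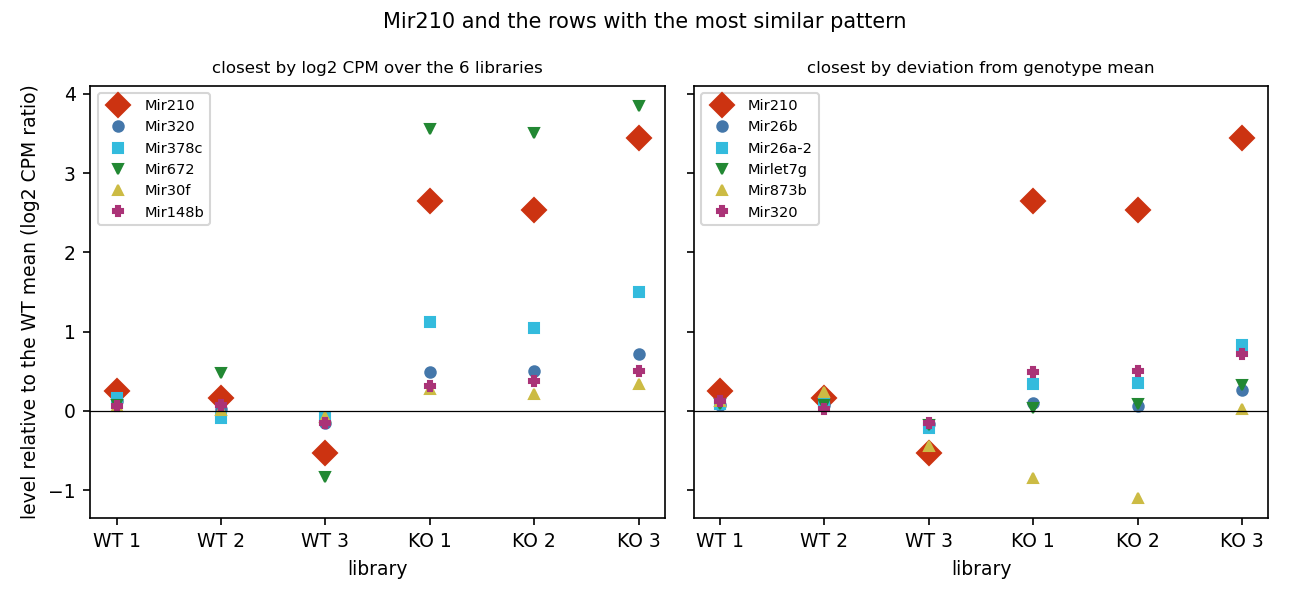
Level in each library relative to the WT mean of the same row (log2 ratio of CPM) for Mir210 (red diamonds) and the 5 rows most like it by Pearson's r of log2 CPM (left) or of deviations from the genotype means (right). Mir210 and all rows shown are higher in Fbxw7 KO replicate 3 than in Fbxw7 KO replicates 1 and 2, and the size of the difference between genotypes varies widely among them.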

How the data were processed

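Small RNA from WT and Fbxw7 KO mouse embryonic fibroblasts was sequenced after TruSeq library preparation, per the labels' protocols. The authors deposited raw read counts per miRNA gene name, made with featureCounts 1.6.4 with strand ignored, per the file headers; reads with several alignments or over several rows were not counted, by the program's default. The submitters' processing notes name build mm10 and, without their roles, Cufflinks 2.2.1, deepTools, SAMtools 1.5 and TopHat2 2.1.1. Trimming is not given in the sources used here. The authors' deposited FPKM values equal the counts per length and TMM-scaled total (relative difference under 1e-06), so they are no independent measurement.

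Counts were fitted with edgeR 4.0.16 in R 4.3.3 (TMM, filterByExpr with minimum count 10 and minimum total 15, robust glmQLFit and glmQLFTest, 2-sided) over 283 rows, with Benjamini-Hochberg adjustment and a threshold of 0.05. SEs were taken from the F statistic. Alternatives used other scalings and filters, DESeq2 1.42.0, limma 3.58.1 on log2(FPKM + 1), a replicate block and single libraries left out. In simulated counts with the same dispersion for every row (280 rows tested), the test found 100% of 4-fold, 85.0% of 2-fold and 53.3% of 1.5-fold changes. Of its 100 calls, 3 were false. Real rows differ in their spread, so these rates need not hold for the real comparison.

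Members, lists and the rule for named rows were chosen with earlier results of these data known. The rule takes called list members, the 2 most abundant tested members of each list that were not called, the 10 nearest rows, the 5 most similar rows by each of 2 measures (log2 CPM with a prior count of 2), and the neighbours in FPKM order. Mir127, Mir206, Mir217, Mir216a and Mir694 were named after their values were seen. Intervals are 95% and cover counting error only.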

Additional observations from a re-analysis of the deposited data

How the results depend on the processing

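The log2 fold change of Mir210 stayed between 2.60 and 3.08 over the 14 alternatives, where 2.93 was reported. The number of rows called was 58 to 76 under other scalings, filters and tools, and 34 to 78 when 1 library was left out, the lowest being 34 on leaving out Fbxw7 KO replicate 2, 35 on leaving out WT replicate 2 and 42 on leaving out WT replicate 1. The hypoxia-raised list had 0 called members with TMM factors from outside the Dlk1-Dio3 cluster and 0 to 1 when 1 library was left out. The HIF-repressing list had 0 in all settings. The log2 fold change of Mir27b turned to 0.010 with library totals only, and that of Mir138-1 to −0.090 with TMM factors from outside the Dlk1-Dio3 cluster. With 1 library left out, Mir27b ranged from −0.28 to 0.076, Mir107 from −0.045 to 0.29 and Mir138-1 from −0.28 to 0.57. The cause was not tested. The labels do not say whether equal replicate numbers pair the libraries. Correlations of same-numbered deviations were −0.0566, 0.136 and 0.157, which cannot decide it with 3 libraries per genotype. With the replicate block, Mir210 had 2.89, 76 rows were called, and the lists had 1 and 0 called members. Of the 12 members of the HIF-repressing list, 9 had a row, 4 of these stood at 0 counts and 2 could be tested.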
